A study of Mus musculus with 42 samples.

Results

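Olfr164 and Olfr165 are 2 of the 1088 intact odorant receptor (OR) genes whose counts were deposited for pS6-IP-Seq, and both are among the 1087 ORs of the dorsal and ventral RNA-Seq table. The pair was chosen by its measured TMT responses: these 2 neighbours on chromosome 16 differed in the lowest TMT concentration at which they were enriched. The TMT values below are therefore a description of the pair. Whether each receptor was called at a TMT concentration is given only because the choice rested on such calls, and is no test of the pair. The ACT, dorsal and ventral values had no part in the choice and were tested.

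The groups were C57BL/6 mice (C57BL/6J in the study's methods) aged p20 to p22 exposed to 0.01%, 0.1%, 1% or 100% (v/v) TMT, a fox odor component that mice avoid innately, or to the same concentrations of acetophenone (ACT), a sweet-smelling aromatic ketone, and unexposed (no odor) mice. Each group had 3 mice, and a replicate number within a set marks a litter, from which mice of 1 sex were taken. The 0.01% and 0.1% groups of an odorant shared 3 no odor mice and the 1% and 100% groups shared another 3, so that the litters of the 2 sets carry the same numbers without being known to be the same. In pS6-IP-Seq, RNA bound to phosphorylated ribosomal protein S6 was pulled down from whole olfactory epithelium, which gave 36 libraries. In addition, 3 dorsal and 3 ventral libraries of olfactory mucosa from unexposed C57BL/6 mice of the same age were sequenced without pull-down.

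Each olfactory sensory neuron expresses a single OR gene from a large family of G protein-coupled receptors, so the mRNA of an OR marks the neurons that carry it. Odor-driven firing leads to phosphorylation of S6 on the ribosomes of the responding neurons. Pulling down phosphorylated S6 thus enriches the OR mRNAs of responding neurons, and OR genes that differ in enrichment differ in the response of their neurons, in their number or in their mRNA per cell. In these bulk samples, fewer cells of a type and less RNA per cell cannot be told apart.

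The tables held OR counts only, so the odor-exposed tissue could not be checked with markers of other cell types. OR counts per library ran between 37012 and 128805 in pS6-IP-Seq and between 155319 and 242123 in the dorsal and ventral libraries. Among the ACT libraries, those of litter 1 at 0.01%, 1% and 100% stood apart in ORs that responded to TMT. Over the 49 ORs other than the pair that were higher at 1% TMT, the median log2 change from the no odor littermate in these 3 ACT libraries was 1.79, 1.99 and 0.96. In the other 9 ACT libraries it ran between -0.08 and 0.46. The 3 libraries were used as labelled, and whether TMT or material of TMT-exposed mice reached them was not tested. The ACT results below are also given without litter 1.

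By GENCODE M21 on GRCm38, Olfr164 (ENSMUSG00000050742.5) spans chr16:19284104-19314064 and Olfr165 (ENSMUSG00000050158.7) chr16:19406244-19423134, both on the minus strand, with 92179 bases and no other listed OR between them. They open a cluster of 8 ORs that ends at 19629916, Olfr166 to Olfr171 being the other 6. The longest transcript of each has 2 exons, a short non-coding first exon and a second exon that holds the whole coding sequence, 2792 bases in all for Olfr164 and 1862 for Olfr165. The longest annotated coding sequence is chr16:19285797-19286741 in Olfr164 and chr16:19407079-19408017 in Olfr165, the last one taken from a shorter transcript that starts 1 codon earlier. The predicted proteins of 315 and 313 residues were identical at 271 positions, 86.6% of the shorter one. Among the 1076 ORs with an annotated open reading frame, each was the closest to the other. The next closest protein was Olfr1395 for both, at 58.7% to Olfr164 and 57.2% to Olfr165.

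The aligned coding sequences matched at 843 of 939 bases (89.8%). Their most alike stretch of 150 bases differed at 7 positions and is shown because it is where reads of the 2 genes are hardest to tell apart. It covers codons 64 to 113 of Olfr164 (chr16:19286403-19286552, minus strand) and 62 to 111 of Olfr165 (chr16:19407685-19407834, minus strand). Both are written 5′ to 3′ from the GRCm38 genome, with the bases that differ in capitals.
Olfr164, most alike: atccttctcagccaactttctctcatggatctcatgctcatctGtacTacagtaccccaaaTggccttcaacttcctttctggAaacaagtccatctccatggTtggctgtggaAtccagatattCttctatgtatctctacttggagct
Olfr165, most alike: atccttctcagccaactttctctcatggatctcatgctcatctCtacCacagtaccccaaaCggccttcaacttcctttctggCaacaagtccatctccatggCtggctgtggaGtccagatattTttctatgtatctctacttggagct

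The least alike stretch of the same length differed at 31 positions and lies in the later part of the coding sequence, at codons 183 to 232 of Olfr164 (chr16:19286046-19286195, minus strand) and 181 to 230 of Olfr165 (chr16:19407328-19407477, minus strand). It is shown with the same capitals, as the gapless stretch of this length where the coding sequences differ at the most bases.
Olfr164, least alike: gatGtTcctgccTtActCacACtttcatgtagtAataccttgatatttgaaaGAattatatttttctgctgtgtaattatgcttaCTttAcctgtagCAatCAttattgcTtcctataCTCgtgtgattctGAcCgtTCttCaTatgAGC
Olfr165, least alike: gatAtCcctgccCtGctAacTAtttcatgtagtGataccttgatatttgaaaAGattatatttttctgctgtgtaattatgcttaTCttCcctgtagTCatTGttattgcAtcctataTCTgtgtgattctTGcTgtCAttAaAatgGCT

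The longest run of bases common to both coding sequences was 47, shorter than the 50-base reads. Only transcripts of the ORs with deposited counts were searched, without OR pseudogenes or other genes. Of 2743 windows of 50 bases along the Olfr164 transcript, 0 occurred in Olfr165 or in any other of these transcripts. Of 1813 windows along the Olfr165 transcript, 0 occurred in Olfr164 and 20 in transcripts of 4 other ORs (Olfr1196, Olfr1336, Olfr393 and Olfr635). None of the 890 windows within its coding sequence was shared. At the level of perfect matches, counts of the pair were therefore not exchangeable.

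The 250 bases before the annotated transcript start of each gene also aligned, with 190 identical bases (76.0% of the length). They are shown as the upstream sequence of each gene, and no link to the odor responses was tested. Matches to the OR promoter motifs CCCNNGGG (the core bound by Olf/EBF factors) and TAATTA or TAATTG (homeodomain sites) are in capitals. Both strands were searched. Olfr164 had a match to each, and Olfr165 had none in this window. The positions are chr16:19314065-19314314 for Olfr164 and chr16:19423135-19423384 for Olfr165, both on the minus strand. Of 966 OR promoters of the same length, 14.5% held CCCNNGGG and 48.1% held a homeodomain match. The 2 motifs did not overlap in Olfr164.
Olfr164, promoter: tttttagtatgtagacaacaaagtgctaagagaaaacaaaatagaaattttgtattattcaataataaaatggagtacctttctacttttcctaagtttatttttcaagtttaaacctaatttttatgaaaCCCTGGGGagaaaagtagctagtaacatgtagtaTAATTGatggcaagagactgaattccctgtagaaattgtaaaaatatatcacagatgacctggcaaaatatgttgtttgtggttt
Olfr165, promoter: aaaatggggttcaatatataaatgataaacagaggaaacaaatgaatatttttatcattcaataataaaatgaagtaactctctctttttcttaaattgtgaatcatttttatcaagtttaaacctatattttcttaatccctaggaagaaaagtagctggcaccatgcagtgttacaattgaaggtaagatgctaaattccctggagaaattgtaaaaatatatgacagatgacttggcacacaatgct

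Without odor, both receptors gave few reads. Normalized counts here are counts divided by the TMM-scaled library size and given per 100000 OR counts. Over the 12 no odor pS6-IP-Seq libraries, Olfr164 ran between 12.7 and 41.3 normalized counts (median 29.5, raw counts 10 to 41) and Olfr165 between 21.9 and 47.5 (median 32.0, raw counts 9 to 31). Per kilobase of the longest transcript, the no odor median was 10.6 for Olfr164 and 17.2 for Olfr165, with overlapping ranges of 4.55 to 14.8 and 11.8 to 25.5. The median of Olfr164 was above that of 36.7% of all ORs and the median of Olfr165 above that of 39.8%. Counts this low limit the precision of each no odor value, and with it every change below.

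The TMT responses that chose the pair are given first. At 0.01% TMT, Olfr165 had 146, 75.3 and 266 normalized counts in the exposed mice of litters 1, 2 and 3, against 36.2, 22.2 and 40.4 in their no odor littermates. The mean log2 change was 2.13 ± 0.50 (SD, n = 3 litters), a 4.37-fold difference. Olfr164 had 30.6, 24.6 and 132 normalized counts at 0.01% TMT, against 30.9, 30.1 and 26.5 in the no odor littermates. Only the mouse of litter 3 was above its no odor littermate, with a log2 change of 2.27, while litters 1 and 2 had -0.01 and -0.28.

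The calls that chose the pair came from fits across all ORs (edgeR quasi-likelihood test, Benjamini-Hochberg adjusted p below 0.05). At 0.01% TMT, 0.368% of ORs were called higher (4 of 1088) and 0.0919% lower, with Olfr165 among the higher ones and Olfr164 outside. The fitted log2 change of Olfr164 was 0.74 with all litters and -0.16 without litter 3. That of Olfr165 was 2.19 with all litters and 1.88 without litter 3. The OR just inside the call was Olfr186, with a log2 change of 1.23, and the next higher one outside was Olfr1361, with 0.72. The lower threshold of Olfr165 was thus drawn by litters 1 and 2, in which Olfr164 stayed at its no odor level.

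At 0.1% TMT, Olfr164 had 118, 221 and 201 normalized counts, against 30.9, 30.1 and 26.5 without odor. The difference was 5.81-fold, with a mean log2 change of 2.54 ± 0.55 (SD, n = 3 litters). Olfr165 had 240, 241 and 316, against 36.2, 22.2 and 40.4, an 8.01-fold difference (log2 3.0 ± 0.35). Both receptors were called higher, a call of the kind that chose them, where 1.38% of all ORs were called higher and 0.643% lower. From 0.01% to 0.1% TMT, the mean log2 step within litters was 1.88 ± 1.25 for Olfr164 and 0.88 ± 0.72 for Olfr165 (SD, n = 3 litters), positive in 3 of 3 litters for each. The step of Olfr164 was 1.91 and 3.12 in litters 1 and 2 and 0.61 in litter 3, where the 0.01% mouse was also above its no odor littermate.

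At 1% TMT the levels of the pair overlapped. Olfr164 had 160, 285 and 253 normalized counts, against 21.3, 25.8 and 34.0 without odor (log2 change 3.04 ± 0.32, 8.25-fold). Olfr165 had 222, 260 and 239, against 36.4, 23.7 and 21.9 (log2 change 3.12 ± 0.48, 8.72-fold). Both again lay inside the call, with 4.69% of ORs called higher and 0.184% lower.

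Undiluted TMT gave lower levels than 1% TMT for both. Olfr164 had 59.8, 135 and 126 normalized counts at 100% TMT, against 21.3, 25.8 and 34.0 without odor (log2 change 1.88 ± 0.45, 3.69-fold). Olfr165 had 94.9, 131 and 122, against 36.4, 23.7 and 21.9 (log2 change 2.07 ± 0.62, 4.19-fold). At this concentration 11.6% of ORs were called higher, the chosen pair among them, and 3.31% lower. Within litters, the level at 100% was below that at 1% in 3 of 3 litters, by a mean log2 change of -1.16 ± 0.22 for Olfr164 and -1.06 ± 0.14 for Olfr165. Of the 49 other ORs higher at 1% TMT, 17 were lower at 100% than at 1% in all 3 litters and 4 were higher in all 3, with a median of -0.30 over the ORs' mean changes. Of these 49, 5 had a lower mean change than Olfr164, and 5 a lower one than Olfr165. The 49 were picked by calls in the same 1% TMT libraries, which by itself favours lower values at 100%. The pair was also chosen by its TMT responses, so its place among the 49 is a description.

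**Figure D1:**
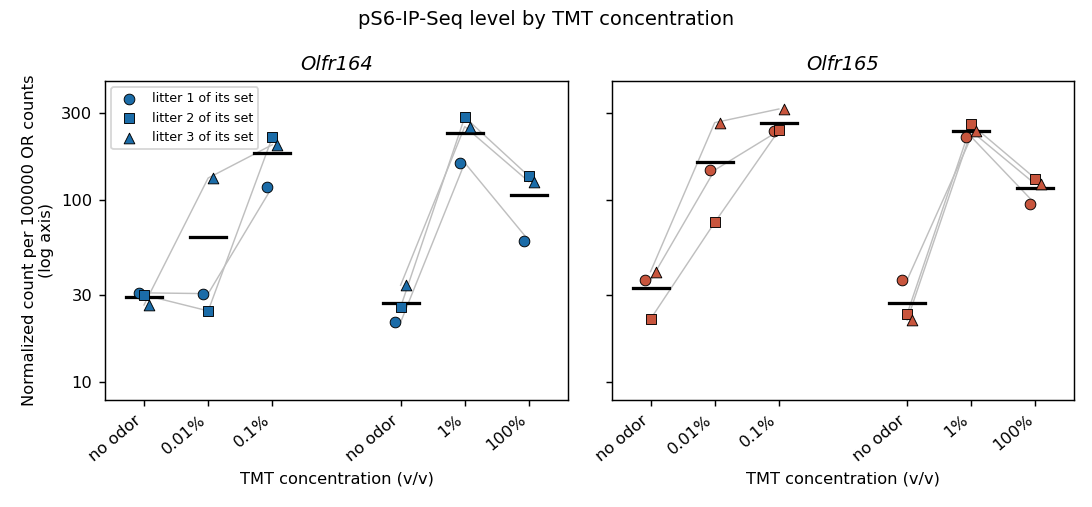
Normalized pS6-IP-Seq count per 100000 OR counts (log axis) of Olfr164 and Olfr165 in each mouse, by TMT concentration. Points are mice, grey lines join littermates, and black bars are group means (n = 3). Olfr165 was above its no odor level in all litters at 0.01% TMT, Olfr164 in litter 3, and both had lower levels at 100% than at 1%.

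The count of Olfr165 relative to Olfr164 within a library needs no scaling and sets the pair against each other. It is given as the log2 ratio with a pseudocount of 1. Without odor the ratio averaged 0.13 ± 0.51 in the mice of the 0.01% and 0.1% TMT set and 0.01 ± 0.67 in those of the 1% and 100% TMT set (SD, n = 3 each). At 0.01% TMT the ratios were 2.20, 1.56 and 1.01, against 0.22, -0.42 and 0.58 in the no odor littermates. The change was 1.46 ± 0.90 (SD, n = 3 litters), or 2.75-fold, with 1.98 and 1.97 in litters 1 and 2 and 0.42 in litter 3. At 0.1% TMT the ratios of 1.02, 0.12 and 0.65 overlapped the no odor ratios of 0.22, -0.42 and 0.58, with a change of 0.46 ± 0.37. The change was 0.07 ± 0.40 at 1% and 0.17 ± 0.33 at 100% TMT, within the spread between litters. The change of the ratio was largest at 0.01% TMT, which follows from how the pair was chosen, and came mostly from litters 1 and 2. In litter 3 the change was 0.42 at 0.01%, against 0.50 at 1% and 0.54 at 100%. At 0.1%, 1% and 100% the mean change was no larger than the SD of the no odor ratios.

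**Figure D2:**
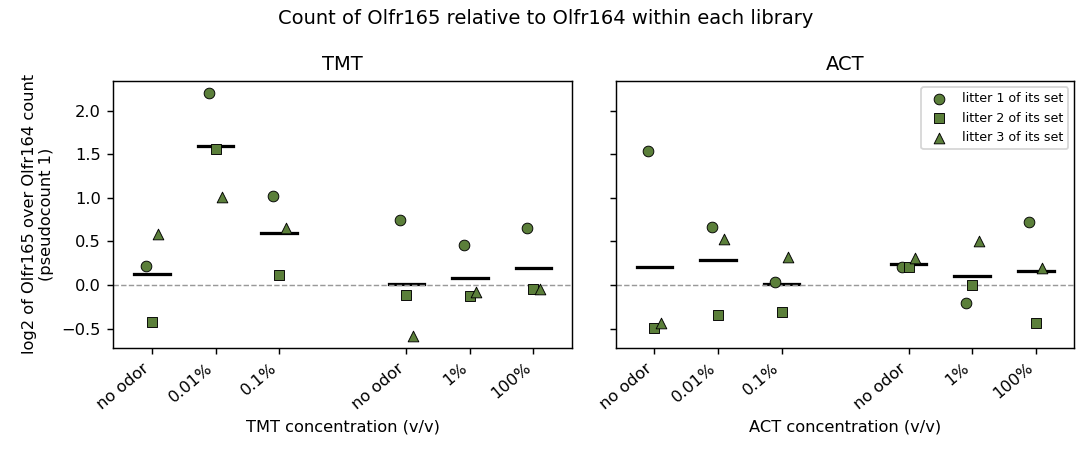
Log2 ratio of the Olfr165 to the Olfr164 count in each pS6-IP-Seq library (pseudocount 1), by TMT and by ACT concentration. Points are mice and black bars are group means (n = 3). The ratios at 0.01% TMT lie between 1.01 and 2.20, above those of the no odor littermates.

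The likeness of other ORs was measured as the root mean square difference in log2 change over the 24 odor libraries, each taken from its no odor littermate, among 922 ORs with a mean of at least 10 normalized counts. Both receptors were chosen by their TMT responses, and the TMT libraries are among the 24. A small difference between Olfr164 and Olfr165 therefore follows in part from the choice. The OR most like Olfr164 was Olfr165, at 0.80, followed by Olfr186 (0.81), Olfr1352 (0.96), Olfr196 (0.97) and Olfr531 (1.00), against a median of 2.06 over all ORs compared. Olfr165 was most like Olfr1297, at 0.58, followed by Olfr186 and Olfr1395 (0.79 each), with Olfr164 the fourth (0.80) and Olfr196 the fifth (1.01), against a median of 2.18. Without the 4 ACT libraries of litter 1, a choice made after the data were seen, Olfr186 came first for Olfr164 (0.75), followed by Olfr165 (0.77) and Olfr1395 (0.88), while Olfr1352 (1.00) and Olfr531 (1.03) were no longer among the 5 most alike. For Olfr165, Olfr1297 (0.62) came before Olfr1395 (0.65), Olfr164 (0.77) and Olfr186 (0.83). Olfr1297 and Olfr1395, like Olfr165, were above their no odor littermates at 0.01% TMT in all litters. Olfr1297 had log2 changes of 2.7, 1.23 and 2.57 at 0.01% TMT in litters 1, 2 and 3, and Olfr1395 had 1.86, 1.35 and 2.58. Olfr531 had -0.13, 0.12 and 0.18 at 0.01% TMT and a mean of 1.19 at 0.1%. Like Olfr164 in litters 1 and 2, it thus stayed near its no odor level at 0.01%. Olfr186 was highest in litter 3 at 0.01% TMT (2.19, against 0.83 and 0.79 in litters 1 and 2).

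Sequence and position were compared with the TMT responses of other ORs. Of the 5 other ORs with the closest proteins (Olfr1395, Olfr56, Olfr1394, Olfr1396 and Olfr314), 1 was called higher at 0.01%, 2 at 0.1%, 2 at 1% and 1 at 100% TMT, where 0.368%, 1.38%, 4.69% and 11.6% of all ORs were called higher, and 0 were called lower. Olfr1395 was the one called at every concentration, with 1280, 653 and 2950 normalized counts at 0.01% TMT, against 353, 255 and 493 in the no odor littermates (fitted log2 change 1.93, adjusted p = 1.06e-07 in the edgeR quasi-likelihood test, and 0.0776 without litter 3). Olfr56 was called at 0.1% and 1% TMT, with fitted log2 changes of 0.84 (adjusted p = 0.0229) and 1.59 (adjusted p = 1.11e-08). Its call at 0.1% was lost when any 1 litter was left out, with log2 changes of 0.71 to 0.97 and adjusted p = 0.0816 to 0.192. It was also lost without the block (adjusted p = 0.165), with DESeq2 (0.0607) and in the joint fit (0.0711). Olfr1394, Olfr1396 and Olfr314 were called at no TMT concentration, with adjusted p of 0.299 or more.

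Of the 6 cluster neighbours, 0 were called higher at 0.01% and 0.1% TMT, where 0.368% and 1.38% of all ORs were called. At such shares, 0 of 6 does not set the neighbours apart from other ORs. At 0.1% TMT the fitted log2 changes of the neighbours ran between -0.31 and 0.00, against 2.59 for Olfr164 and 3.03 for Olfr165. This contrast follows from the choice of the pair by its TMT responses. At 1% TMT, where 4.69% of ORs were called higher, Olfr170 was called, with 238, 258 and 170 normalized counts, against 79.0, 108 and 87.5 without odor (fitted log2 change 1.23, adjusted p = 7.43e-05). At 100% TMT, where 11.6% of ORs were called higher, 3 of the 6 were called, Olfr170 (1.81, adjusted p = 6.24e-09), Olfr171 (1.18, adjusted p = 0.000253) and Olfr169 (0.75, adjusted p = 0.0405). The call of Olfr169 was lost when any 1 litter was left out, with log2 changes of 0.55 to 0.99 and adjusted p = 0.0598 to 0.466. It was also lost with scaling by the total OR count (0.50, adjusted p = 0.195), without the block (0.68, adjusted p = 0.121) and with DESeq2 (adjusted p = 0.0591). Olfr166, Olfr167 and Olfr168 were called at no TMT concentration. For Olfr170 the mean change was larger at 100% TMT than at 1% TMT, while Olfr164 and Olfr165 had their larger change at 1%. The order of Olfr170 held in litters 1 and 3 but not in litter 2 (log2 change 1.24 at 100%, against 1.25 at 1%). Whether these orders differ was not tested.

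ACT was the independent odor. At 0.01% ACT, Olfr164 had 89.8, 36.4 and 25.7 normalized counts in litters 1, 2 and 3, against 12.7, 39.4 and 41.3 in the no odor littermates. Olfr165 had 143, 28.7 and 37.8, against 39.4, 27.9 and 30.4. Only litter 1 was clearly high, and the fitted log2 changes of 0.57 and 0.76 did not pass the test (edgeR quasi-likelihood test, adjusted p = 1 for each). No OR was called higher here, 0% of 1088, with 28 ORs at an unadjusted p below 0.05 and 2 called by DESeq2. The study reported enriched ORs at this concentration, so the missing calls do not show that the pair did not respond. Without litter 1, the fitted changes were -0.37 for Olfr164 and 0.17 for Olfr165.

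At 0.1% ACT, both receptors were at their no odor level. Olfr164 had 34.9, 28.9 and 30.3 normalized counts, against 12.7, 39.4 and 41.3, and Olfr165 had 35.8, 23.1 and 38.1, against 39.4, 27.9 and 30.4. The mean log2 changes were 0.17 ± 1.05 and -0.03 ± 0.30 (SD, n = 3 litters), and neither was called (adjusted p = 1 in the edgeR quasi-likelihood test, with 0.643% of ORs called higher). The change of 1.39 for Olfr164 in litter 1 came with 10 raw counts in that no odor library, the lowest count of Olfr164 in any. Without litter 1 the fitted changes were -0.45 and 0.04.

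At 1% ACT, Olfr164 had 251, 49.4 and 29.9 normalized counts, against 28.9, 19.3 and 38.0 without odor. Olfr165 had 217, 49.4 and 43.3, against 33.7, 22.5 and 47.5. The mouse of litter 1 was far above all others, the mouse of litter 2 was above its littermate, and that of litter 3 was below, so that the groups overlapped. Both were called higher in the edgeR quasi-likelihood test with litter as a block, Olfr164 with a fitted log2 change of 1.43 (adjusted p = 0.0364) and Olfr165 with 1.24 (adjusted p = 0.0436), where 1.38% of ORs were called higher and 0.276% lower. Without litter 1 the changes were 0.49 and 0.47 and neither was called (adjusted p = 0.98 for each). Without litter 2 they were 1.42 (adjusted p = 0.965) and 1.26 (adjusted p = 0.965). Without litter 3, the mouse below its littermate, they were 2.28 (adjusted p = 8.05e-05) and 1.94 (adjusted p = 0.000574), and both were called. Without the replicate block the values were 1.90 (adjusted p = 1) and 1.55 (adjusted p = 0.969), and DESeq2 with the block gave adjusted p = 0.999 for each.

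In the same library of litter 1 at 1% ACT, 49 of the 49 other ORs higher at 1% TMT were above their no odor littermate, with a median log2 change of 1.99. The exposed mice of litters 2 and 3 had 33 and 31 of 49, with medians of 0.25 and 0.27. The part of this shift in the 1% ACT call of the pair was not tested. Of the 6 cluster neighbours, 0 were called at any ACT concentration, with or without litter 1, where 0%, 0.643%, 1.38% and 0% of all ORs were called higher from 0.01% to 100%. Of the 5 ORs with the closest proteins, Olfr56 was called at 1% ACT, with 436, 146 and 266 normalized counts, against 108, 61.1 and 209 without odor (fitted log2 change 1.18, adjusted p = 0.00143 in the edgeR quasi-likelihood test). This call was lost in 7 of 10 alternatives, among them without litter 1 (0.75, adjusted p = 0.522), without litter 2 (1.13, adjusted p = 0.965), without the block (1.15, adjusted p = 0.928) and with DESeq2 (1.18, adjusted p = 0.618).

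At 100% ACT, Olfr164 had 76.5, 35.5 and 22.9 normalized counts, against 28.9, 19.3 and 38.0 without odor, and Olfr165 had 128, 25.6 and 26.4, against 33.7, 22.5 and 47.5. The exposed and no odor mice overlapped for both. The fitted log2 changes were 0.51 (adjusted p = 0.753) and 0.43 (adjusted p = 0.798) in the edgeR quasi-likelihood test, which called 0 ORs, against 155 at an unadjusted p below 0.05, 19 by DESeq2 and 43 by edgeR's likelihood ratio test. Without litter 1 they were 0.08 and -0.34. Enriched ORs were reported by the study at this concentration too. The missing calls therefore do not show that the pair did not respond. Of the 49 other ORs higher at 1% TMT, 44 were above their no odor littermate in litter 1, 32 in litter 2 and 32 in litter 3.

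**Figure D3:**
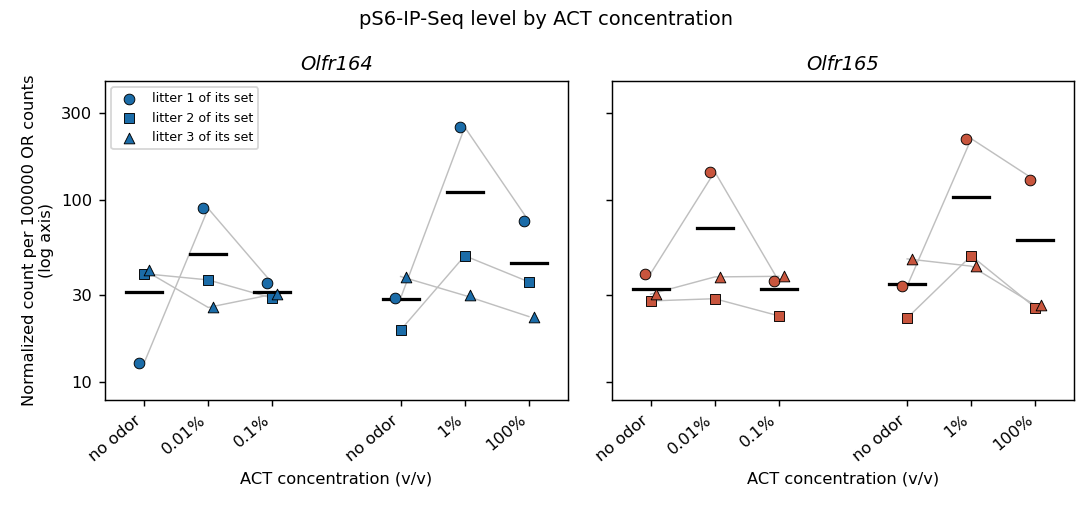
Normalized pS6-IP-Seq count per 100000 OR counts (log axis) of Olfr164 and Olfr165 in each mouse, by ACT concentration, on the axis range used for TMT. Points are mice, grey lines join littermates, and black bars are group means (n = 3). The high values at 0.01%, 1% and 100% ACT are those of litter 1.

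Over all 12 ACT libraries, the mean log2 change from the no odor littermate was 0.67 for Olfr164, higher in 6 of 12 libraries, and 0.58 for Olfr165, higher in 8 of 12. With the no odor label exchanged within each of the 6 litters, an exact permutation test over all arrangements gave p = 0.152 and 0.17 (two-sided, adjusted over 3 values p = 0.255 for each). The log2 ratio of Olfr165 to Olfr164 changed by -0.08 (exact permutation p = 0.727, adjusted p = 0.727). Leaving out litter 1 gave -0.07 for Olfr164, 0.09 for Olfr165 and 0.16 for the ratio, with adjusted p = 0.84 or more. The permutation test thus detected no ACT response of the pair across concentrations, which does not show that there was none. The changes of single libraries ran between -0.83 and 3.07.

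**Figure D4:**
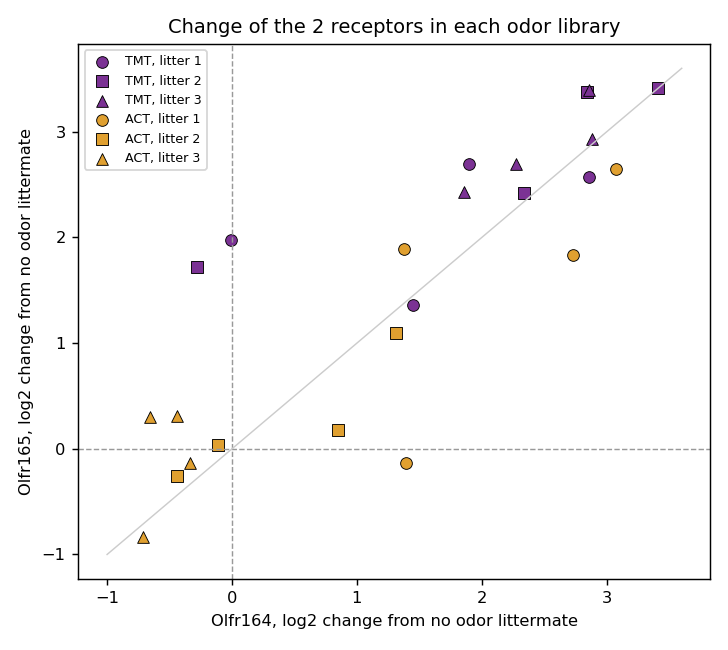
Log2 change of Olfr164 (horizontal) and Olfr165 (vertical) from the no odor littermate in each of the 24 odor libraries, with the diagonal of equal change in grey. Points are mice, coloured by odorant and shaped by litter. The 0.01% TMT mice of litters 1 and 2 lie far above the diagonal, with Olfr165 at 1.98 and 1.72 and Olfr164 at -0.01 and -0.28, and the 4 ACT mice above 1 for both receptors are 3 of litter 1 and 1 of litter 2.

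The dorsal and ventral libraries give the position of the pair in the olfactory epithelium, in which each OR is expressed within a zone along this axis. The known zone ORs followed the labels in direction, clearly so for all but Olfr17. Olfr160 (M72) and Olfr16 (MOR23), both dorsal, had fitted log2 changes of 3.69 and 3.34 for dorsal over ventral, and Olfr1507 (MOR28), a ventral OR, had -5.27 (adjusted p = 0.0018 in the edgeR quasi-likelihood test, and 0.189 without replicate 2). Olfr17 (P2), also ventral, had -1.02, close to the median of -0.65 over all ORs, and was not called (adjusted p = 0.127 in the same test).

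Olfr164 had 26.3, 37.4 and 43.3 normalized counts in the dorsal libraries, against 65.6, 58.1 and 88.2 in the ventral ones. The fitted log2 change was -0.99 and was not called (adjusted p = 0.118 in the edgeR quasi-likelihood test with the replicate number as a block). Without replicate 2 it was -1.02 and was called (adjusted p = 0.0495). Olfr165 had 9.60, 23.1 and 4.06 in the dorsal libraries, against 26.7, 28.8 and 32.8 in the ventral ones. The change of -1.50 passed the test (adjusted p = 0.0468), with 37.2% of 1087 ORs called lower in dorsal libraries and 37.4% called higher. Without replicate 3, in which the dorsal library had 6 reads of Olfr165, it was -0.88 (adjusted p = 0.383), and without replicate 1 it was -1.54 (adjusted p = 0.225). Without the block, the calls were the other way round, with adjusted p = 0.0393 for Olfr164 and 0.0638 for Olfr165.

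Both changes lay near the middle of all ORs, whose median was -0.65 on this scale, -0.39 with DESeq2 size factors and -1.24 with scaling by the total OR count. Of the 1087 ORs, 44.6% had a lower change than Olfr164 and 37.0% a lower one than Olfr165. The Olfr165 to Olfr164 log2 ratio was -1.41, -0.68 and -3.22 in the dorsal libraries and -1.28, -1.0 and -1.42 in the ventral ones, a difference of -0.54 (exact permutation test, two-sided p = 0.8, where 3 against 3 cannot go below 0.10). Without replicate 3 the difference was 0.10.

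The neighbours in the cluster were placed differently from the pair. All 6 were called lower in the dorsal libraries, where 37.2% of all ORs were, with fitted log2 changes between -5.22 and -3.83 and adjusted p of 0.000655 or less, and each call held in all 9 alternative fits. Olfr166, next to Olfr165, had 20.7, 218 and 40.6 normalized counts in the dorsal libraries, against 865, 760 and 766 in the ventral ones. Olfr169 had 1.01, 11.2 and 11.5, against 225, 249 and 205. The dorsal libraries thus held a larger part of the ventral level for Olfr164 and Olfr165 than for any of the 6 neighbours, a difference between genes that was not itself tested. Of the 5 ORs with the closest proteins, Olfr1394, Olfr1395 and Olfr1396 had changes of -0.95, -1.13 and -1.28, in the range of the pair, and were not called (adjusted p = 0.116, 0.082 and 0.0631). Olfr56 had -2.19 (adjusted p = 0.00412, 0.079 without replicate 1 and 0.0713 without replicate 3) and Olfr314 had -5.0 (adjusted p = 0.000416).

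**Figure D5:**
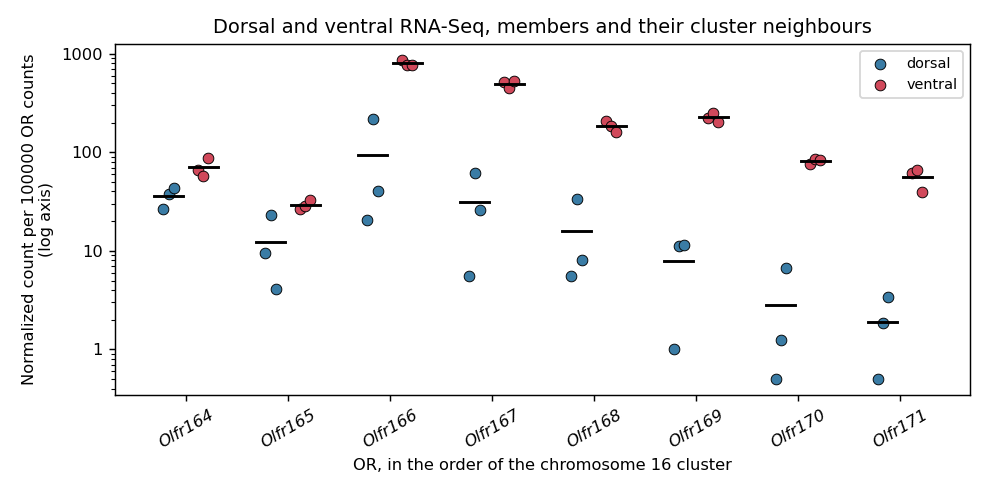
Normalized RNA-Seq count per 100000 OR counts (log axis) of the 8 ORs of the chromosome 16 cluster in the 3 dorsal and 3 ventral libraries. Points are libraries and black bars are means. The dorsal points lie below the ventral ones for all 8 ORs, and on the log axis the means are closer together for Olfr164 and Olfr165 than for Olfr166 to Olfr171.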

How the data were processed

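Expression of ORs was measured by pS6-IP-Seq in 36 libraries and by RNA-Seq of dorsal and ventral olfactory mucosa in 6. The authors mapped 50-base reads with STAR to GRCm38 with OR models that include untranslated ends, estimated expected counts with RSEM, and deposited the estimated counts of each OR rounded to whole numbers. The deposited tables also hold the authors' own fold changes, p-values, FDR values and group means, which were not used. No column of another sample was present. The label of the 0.1% TMT mouse of litter 1 names a 1% TMT table, but its odor label and the study's code give 0.1%, which was used. The protocol in the labels of the dorsal and ventral libraries is that of the pull-down, and the study's methods (total RNA) were followed.

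Each table was fitted on all its ORs with edgeR 4.0.16 (glmQLFit, robust, and glmQLFTest) in R 4.3.3, with TMM scaling over ORs, no filter, the replicate number as a block and Benjamini-Hochberg adjustment over all ORs, called at 0.05. ORs without counts in a comparison got a p of 1. The edgeR fits and the permutation test were checked on simulated data. Changes per litter used normalized counts per 100000 OR counts with a pseudocount of 1. The pairing comes from the study's methods, which place littermates under each replicate number. Libraries of the same number had median correlations of 0.092 and 0.148 (ACT) and 0.12 and 0.067 (TMT) in their deviations from the group means, against -0.033, -0.073, -0.054 and -0.039 for different numbers. Between dorsal and ventral libraries the median was -0.306 at equal numbers and 0.183 at unequal ones, so those numbers do not pair the libraries by this measure. No 2 libraries of a group agreed within sampling noise (chi-square per degree of freedom of 3.45 or more). The study gives 3 mice for the dorsal and ventral RNA-Seq, and its methods do not say which libraries came from the same mouse. The p-values of the dorsal and ventral comparison measure the spread between these libraries.

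Gene models came from GENCODE M21, which places 1082 of the ORs uniquely, and sequences from the GRCm38.p6 genome as distributed by RefSeq. Proteins were translated from the annotated coding sequences and aligned globally (BLOSUM62, gap costs 11 and 1) with Biopython 1.88. Identity is given over the shorter protein. Alternatives were other scalings (DESeq2 size factors, total OR count), a filter on low counts, no block, the likelihood ratio test, DESeq2 1.42.0, a joint fit of the 18 libraries of an odorant, leaving out each replicate, and a pseudocount of 0.5. The ORs given by name were those of the same cluster (chained within 1000000 bases), the 5 with the closest protein to each receptor, the 5 most alike in response, and 4 zone ORs. Genes named outside this rule are the ORs at the edge of the 0.01% TMT call and those sharing read-length windows with Olfr165, chosen after their values were seen. The receptors and the lists were chosen with earlier results of these data known.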

Additional observations from a re-analysis of the deposited data

How the results depend on the processing

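The 22 values of the pair were each refitted with 131 alternatives in all, besides leaving out each replicate. Of these, 111 kept the direction and the side of the threshold (for TMT, stayed within the spread between litters), 17 lost a call, 2 gained one and 1 turned its sign. At 1% ACT, Olfr164 (1.43, called) was not called with DESeq2 size factors (1.42), total OR counts (1.28), the low count filter (1.44), the likelihood ratio test (1.39), DESeq2 (1.38), the joint fit (1.37) or without the replicate block (1.90). Olfr165 (1.24, called) was not called with DESeq2 size factors (1.23), total OR counts (1.08), the filter (1.24), the likelihood ratio test (1.23), DESeq2 (1.22), the joint fit (1.12) or without the block (1.55). Between dorsal and ventral libraries, Olfr164 (-0.99, not called) was called with total OR counts (-1.59) and without the block (-0.99), and Olfr165 (-1.50, called) was not called with DESeq2 size factors (-1.25), DESeq2 (-1.29) or without the block (-1.26). Olfr164 at 0.1% ACT was -0.05 in the joint fit, against 0.11. The cause of these changes was not tested. DESeq2 gave no adjusted p for the pair at 100% ACT. The block changed no other tested call of the pair.

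Leaving out 1 replicate gave for Olfr164 -0.37 to 1.25 at 0.01%, -0.45 to 0.42 at 0.1%, 0.49 to 2.28 at 1% and 0.08 to 1.14 at 100% ACT, -0.16 to 1.25 at 0.01%, 2.42 to 2.89 at 0.1%, 2.89 to 3.20 at 1% and 1.66 to 2.11 at 100% TMT, and -1.02 to -0.83 for dorsal over ventral. For Olfr165 it gave 0.17 to 1.08, -0.20 to 0.11, 0.47 to 1.94 and -0.34 to 1.14 over the same ACT concentrations, 1.88 to 2.37, 2.87 to 3.16, 2.94 to 3.42 and 1.84 to 2.45 over those of TMT, and -2.0 to -0.88 for dorsal over ventral. The log2 ratio of the pair gave -0.96 to 0.10 between dorsal and ventral libraries, and over all ACT libraries Olfr164 gave -0.07 to 1.27, Olfr165 0.09 to 0.91 and the ratio -0.35 to 0.16. A fit without a replicate leaves 2 mice per group, and its p-values are unstable. Scaling by the total OR count moved the median of all ORs by -0.59 in the dorsal and ventral table and by -0.25 to 0.07 in the odor tables. No odor counts of 9 to 41 reads limit the precision of every change of the pair.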
